A study of Mus musculus with 35 samples.

Results

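The collagen genes outside the type IV core are described here in mouse embryonic stem (ES) cells driven towards primitive endoderm (PrE) by GATA6. The members were all genes whose symbol has the form Col, number, a, number, apart from Col4a1 and Col4a2, which gave 42 of the 44 collagen genes among 44853 genes of the induction table and 14 of 6275 genes of the siRNA table. Of these 42, 27 reached a mean of 1 TPM (a length-scaled share of the library's transcripts) in at least 1 group and were tested. Col4a1 and Col4a2 are used only as a reference.

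To follow how GATA6 converts ES cells, KH2 ES cells (C57BL/6 x 129/Sv) with a doxycycline (Dox) inducible gata6 cassette were profiled by RNA-seq in 3 untreated libraries (0 h) and in 3 libraries at each of 16, 24, 48, 72, 96 and 168 h of exposure to 1 µg/mL Dox, together with 2 libraries of wild-type XEN cells (line X10, CD1 background), an extra-embryonic endoderm line. To ask what Oct4 contributes, cells of the single inducible clone G6.3 were nucleofected with a pool of siRNA against Pou5f1, which encodes Oct4 (siOct4), or with non-targeting siRNA (siCTL), and collected at 48 h, all with Dox, in 6 libraries each. ES cells, with or without Dox, were grown with LIF on gelatin and mitomycin C-inactivated mouse embryonic fibroblast (MEF) feeders, and XEN cells likewise but without LIF. Feeders were adsorbed to plastic for 20 min before lysis, and fibroblast markers are therefore given by library below. The study's methods call the replicates independent and the labels do not say what was repeated, and p-values measure the spread between these libraries.

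Collagens are trimers whose chains wind into a triple helix of Gly-X-Y repeats, and they are sorted by the structures they form. Fibrillar collagens build the fibres of connective tissue, FACIT collagens decorate those fibres, type IV and type VIII collagens form networks, type VI collagen forms beaded filaments, multiplexins sit in basement membranes, and a few collagens span the plasma membrane. PrE and the parietal endoderm derived from it secrete a thick basement membrane that is rich in type IV collagen and laminin, whereas fibroblasts such as the feeders make mainly fibrillar and type VI collagen.

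The windows of 250 bases before the start of 5 members with the widest or most time-dependent changes are shown first, because the values below turn on them. RefSeq (GRCm38.p6) gave a promoter entry for 33 of the 42 members, in 36 windows, and 2 starts for Col18a1. Capitals mark, on either strand, the GATA words (AGATAA, its variant with a leading T, TGATAA, and the same words ending in G, AGATAG and the like with T first, TGATAG), the octamer ATGCAAAT known as a binding word of Oct4, TATAAA, and the GC box GGGCGG. None of these words overlapped another in the windows printed.
Col27a1 (chr4:63215162-63215411, plus strand): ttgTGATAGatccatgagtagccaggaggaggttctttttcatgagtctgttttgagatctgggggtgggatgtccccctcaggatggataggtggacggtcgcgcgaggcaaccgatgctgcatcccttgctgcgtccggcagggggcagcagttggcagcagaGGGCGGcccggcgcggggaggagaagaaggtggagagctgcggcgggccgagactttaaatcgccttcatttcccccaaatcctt
Col11a1 (chr3:114030290-114030539, plus strand): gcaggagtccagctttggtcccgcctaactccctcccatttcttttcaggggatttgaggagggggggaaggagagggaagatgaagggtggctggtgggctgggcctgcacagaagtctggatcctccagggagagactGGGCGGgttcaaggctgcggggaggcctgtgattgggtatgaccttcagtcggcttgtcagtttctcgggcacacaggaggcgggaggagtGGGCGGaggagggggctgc
Col13a1 (chr10:61979109-61979358, minus strand): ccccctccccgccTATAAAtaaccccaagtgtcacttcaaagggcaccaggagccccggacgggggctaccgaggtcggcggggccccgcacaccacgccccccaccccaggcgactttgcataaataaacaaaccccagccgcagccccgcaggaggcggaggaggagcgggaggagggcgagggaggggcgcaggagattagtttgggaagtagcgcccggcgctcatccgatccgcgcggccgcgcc
Col3a1 (chr1:45311288-45311537, plus strand): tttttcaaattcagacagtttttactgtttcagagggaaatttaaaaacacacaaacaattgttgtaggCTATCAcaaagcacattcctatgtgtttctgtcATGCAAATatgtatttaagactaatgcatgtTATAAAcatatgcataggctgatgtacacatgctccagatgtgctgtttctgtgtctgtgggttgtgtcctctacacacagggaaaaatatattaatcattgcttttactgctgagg
Col18a1, upstream start (chr10:77166531-77166780, minus strand): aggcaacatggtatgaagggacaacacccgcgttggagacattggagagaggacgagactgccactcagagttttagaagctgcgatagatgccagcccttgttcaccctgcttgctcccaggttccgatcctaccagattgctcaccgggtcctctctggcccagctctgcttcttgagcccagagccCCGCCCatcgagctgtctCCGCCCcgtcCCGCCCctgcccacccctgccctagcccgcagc
Col18a1, downstream start (chr10:77113706-77113955, minus strand): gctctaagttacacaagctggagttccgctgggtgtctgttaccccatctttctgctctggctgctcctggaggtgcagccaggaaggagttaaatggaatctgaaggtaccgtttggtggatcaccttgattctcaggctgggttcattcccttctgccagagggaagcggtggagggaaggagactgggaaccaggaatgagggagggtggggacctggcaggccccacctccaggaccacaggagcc

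The Col27a1 window held 1 GATA word, from base -247 to -242 relative to the start, and 1 GC box, and the Col11a1 window held 2 GC boxes and no GATA word. The Col3a1 window, the one with the lowest GC content of those shown (35.2%, against a median of 52.4% over all windows), held a GATA word on the opposite strand from -181 to -176, the octamer from -148 to -141 and TATAAA from -117 to -112. The upstream Col18a1 window held 3 GC boxes on the opposite strand and the downstream one none of the words. Over all 32851 windows of this length, 26.5% held a GATA word, 1.60% the octamer, 12.4% TATAAA and 32.7% the GC box, and of the 36 member windows 6 held a GATA word, 2 the octamer, 5 TATAAA and 21 the GC box. These are matches of letters and not sites of binding.

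Before Dox, a single member accounted for most of the transcripts. Col18a1, which encodes the multiplexin whose C-terminal fragment is endostatin, made up 52.4% of the members' summed mean at 0 h, followed by the type I chains Col1a2 and Col1a1 at means of 22.1 and 19.5 TPM. At 168 h the first place was taken by Col27a1, an atypical fibrillar collagen with a shortened, imperfect helix known from cartilage, at 18% of the sum, and in XEN cells Col27a1 again stood first at 24.9%. Col18a1 dropped from a mean of 140 TPM before Dox to 22.5 TPM after 48 h, which was a larger drop than that of all members summed. The summed mean of the other members therefore did not fall over this interval. With Col18a1 included, the members' summed level was lowest at 48 h and highest at 168 h. Its mean was 268 TPM with an SD of 35.5 at 0 h (n = 3), 187 TPM with an SD of 2.16 after 48 h (n = 3), 388 TPM with an SD of 91.9 after 168 h (n = 3) and 328 TPM with an SD of 11.6 in XEN cells (n = 2). At 0 h, 168 h and in XEN cells the sum of Col4a1 and Col4a2 had means of 17.0 ± 2.56, 11556 ± 215 and 1660 ± 33.6 TPM (SD), and the members' sum over the core's sum was 15.8 ± 1.05, 0.0336 ± 0.00831 and 0.198 ± 0.00299 (SD).

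Calls per time point are counted against the share of all genes called in the same fit (limma on log2(TPM + 1), Benjamini-Hochberg adjusted p under 0.05 and an absolute log2 difference above 1). All time comparisons use the same 3 libraries at 0 h, and 7 of the 27 tested members were under 1 TPM at 0 h and entered the fit only through a later group or XEN cells. At 16 h limma called 0 of 27 members in either direction, where it called 1.97% of all genes higher and 0.804% lower, and 9 members had an unadjusted p under 0.05. Without replicate 3 of 0 h the count was 2. At 24 h 3 members (11.1%) were higher, against 3.24% of all genes, and 0 lower, against 2.44%. At 48 h 3 (11.1%) were higher, against 9.14%, and 1 (3.70%) lower, against 7.26%. The count of 3 at 24 h was 5, 0 and 7 without replicate 1, 2 or 3 of 0 h, and 1 without replicate 1 of 24 h.

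The counts grew with time, and so did the share of all genes called. At 72 h 4 members (14.8%) were higher, against 14.7% of all genes, and 1 (3.70%) lower, against 11.5%. At 96 h 5 (18.5%) were higher, against 15.4%, and 2 (7.41%) lower, against 14.1%. At 168 h 11 (40.7%) were higher, against 22.6%, and 2 (7.41%) lower, against 16.5%. The count of 7 at 96 h was 11 without replicate 3 of 0 h or without replicate 3 of 96 h. In XEN cells against 0 h 7 members (25.9%) were higher, against 18.9% of all genes, and 4 (14.8%) lower, against 18.7%. The map of differences by member and comparison shows Col27a1 and Col18a1 as the widest rows, in opposite directions.

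**Figure D1:**
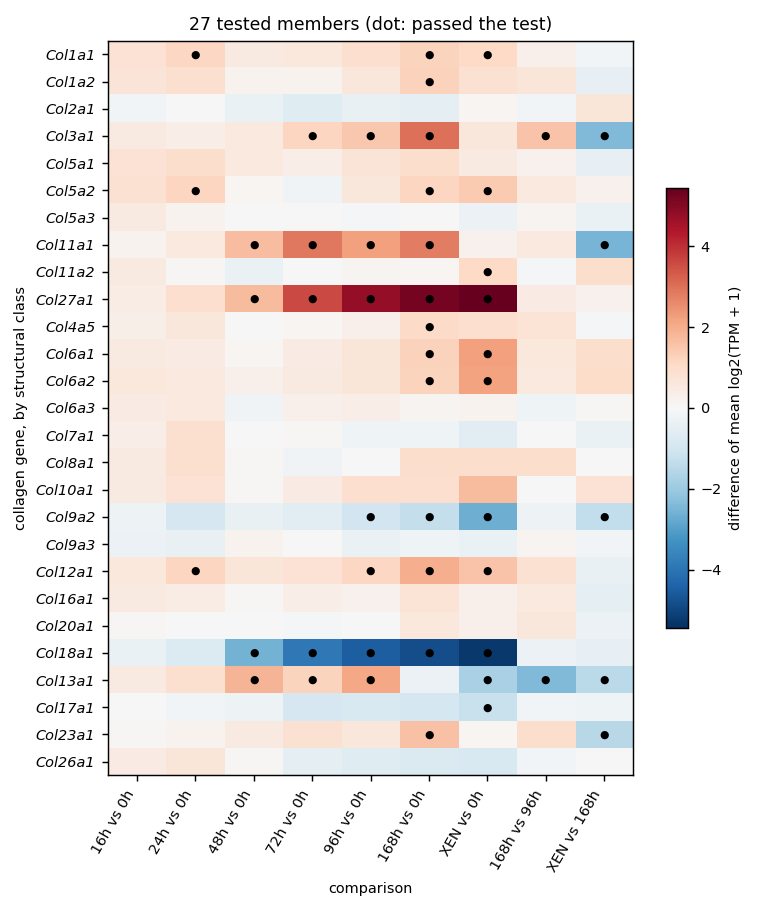
Difference of mean log2(TPM + 1) between groups (colour, red higher and blue lower in the first-named group) for the 27 tested members (rows, by structural class) in 9 comparisons of the induction libraries (columns), with a dot where the test was passed. Col27a1 reaches 5.22 and Col18a1 -4.81 at 168 h against 0 h.

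Among the fibrillar collagens, 11 genes of which 10 were tested, 6 were called higher at 168 h (22.6% of all genes) and 0 lower (16.5%), with Col27a1 at the widest difference. Col27a1 (ENSMUSG00000045672.15, mm10 chr4:63214004-63334991, plus strand, a span that also holds the miRNA gene Mir455) stood at 1.14, 0.903 and 0.690 TPM at 0 h, at 1.47, 1.49 and 1.59 TPM at 16 h and at 2.86, 2.68 and 2.37 TPM at 24 h. It stood at 5.81, 7.31 and 3.20 TPM at 48 h, at 22.4, 21.6 and 21.8 TPM at 72 h and at 56.3, 51.0 and 45.6 TPM at 96 h. At 168 h the values were 67.3, 66.2 and 76.2 TPM, and in XEN cells 79.7 and 84.0 TPM. Every library from 16 h on lay above all 3 libraries at 0 h, and no time group overlapped the one before it. Against 0 h the log2 difference was 1.70 ± 0.17 (SE) at 48 h (limma adjusted p = 5.54e-08), 3.59 ± 0.17 at 72 h and 5.22 ± 0.17 at 168 h (adjusted p = 1.35e-15). XEN cells and 168 h differed by 0.23 ± 0.18 (adjusted p = 0.330), so that no difference was called between them although both XEN libraries lay above the 3 at 168 h.

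Col11a1, a minor fibrillar chain that sets fibre diameter in cartilage and other tissues, rose in the Dox series but was low in XEN cells. Col11a1 (ENSMUSG00000027966.20, mm10 chr3:114030540-114220718, plus strand) stood at 0.833, 0.924 and 0.822 TPM at 0 h, at 1.11, 1.04 and 1.25 TPM at 16 h, at 1.59, 1.70 and 1.68 TPM at 24 h and at 4.69, 5.19 and 5.15 TPM at 48 h. It then stood at 17.1, 19.4 and 5.90 TPM at 72 h, at 7.38, 7.62 and 8.65 TPM at 96 h and at 10.7, 13.4 and 11.7 TPM at 168 h, against 1.45 and 1.01 TPM in XEN cells. Replicate 3 at 72 h was far below its companions, and all libraries with Dox lay above those at 0 h. That library also stood apart over all tested genes. Its median absolute log2 difference was 0.308 from replicate 1 and 0.305 from replicate 2, against at most 0.176 for any other pair within a group of the induction series. On the log2 scale the difference from 0 h was 1.69 ± 0.25 (SE) at 48 h, 2.88 ± 0.25 at 72 h and 2.79 ± 0.25 at 168 h (limma adjusted p = 5.70e-09). XEN cells were below 168 h by a log2 difference of -2.54 ± 0.28 (adjusted p = 5.82e-07), with no overlap. Its partner chain gene Col11a2, between 0.376 and 2.01 TPM in every Dox-series library, stood at 2.89 and 3.06 TPM in XEN cells and was called higher there than at 0 h (1.08 ± 0.23, adjusted p = 0.000290), a call lost without replicate 2 of 0 h (0.95).

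Col3a1, the chain of type III collagen, is a feeder-type collagen and was also the one that changed most within that group. Col3a1 (ENSMUSG00000026043.18, mm10 chr1:45311538-45349706, plus strand) stood at 2.91, 2.94 and 10.5 TPM at 0 h, at 5.04, 3.84 and 15.1 TPM at 16 h, at 5.45, 3.10 and 12.9 TPM at 24 h and at 6.84, 5.90 and 8.98 TPM at 48 h. It stood at 8.15, 10.8 and 17.2 TPM at 72 h, at 17.7, 15.7 and 11.2 TPM at 96 h and at 37.7, 32.7 and 70.1 TPM at 168 h, against 6.34 and 9.03 TPM in XEN cells. Replicate 3 was the highest in 6 of the 7 time groups and the lowest at 96 h, and the libraries at 168 h lay above those of every other group. The log2 difference of 168 h from 0 h was 3.01 ± 0.49 (SE, limma adjusted p = 1.72e-05) and that of XEN cells from 168 h was -2.40 ± 0.55 (adjusted p = 0.00131). With replicate 3 of every time group left out they were 3.20 and -2.07, and both passed the test. The rise from 96 to 168 h, 1.53 ± 0.49 (adjusted p = 0.0168), was not called without replicate 3 of 96 h (1.35, adjusted p = 0.0626) or of 168 h (1.21, adjusted p = 0.0840).

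The calls of Col3a1 before 168 h were less secure. At 72 h the difference from 0 h was 1.16 ± 0.49 (limma adjusted p = 0.0451), the groups overlapped, and the call was lost without replicate 1 or 2 of 0 h (0.90 in each case, adjusted p = 0.165 and 0.163) and without replicate 2 (1.20, adjusted p = 0.0748) or 3 (0.89, adjusted p = 0.172) of 72 h. At 96 h it was 1.48 ± 0.49 (adjusted p = 0.0122), lost without replicate 1 or 2 of 0 h (1.22 in each case, adjusted p = 0.0603 and 0.0600). The call at 72 h was also lost with rescaled libraries (1.09, adjusted p = 0.0590), with no filter on low values (1.16, adjusted p = 0.0884) and with only the compared groups in the fit (1.16, adjusted p = 0.0711). With replicates 1 and 2 averaged, the calls at 72 h (1.04, adjusted p = 0.210), at 96 h (1.13, adjusted p = 0.168) and of 168 h against 96 h (1.79, adjusted p = 0.0716) were lost.

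**Figure D2:**
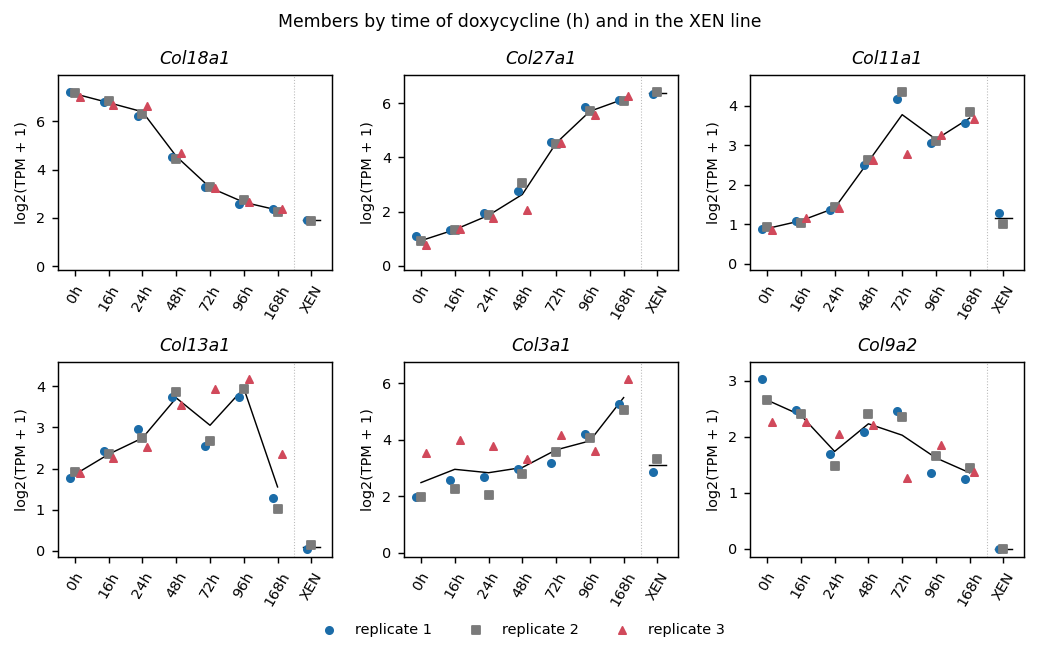
Level as log2(TPM + 1) of 6 members (panels) in every library at each time of Dox and in XEN cells (horizontal axis), with the mean of each group as a line and the replicates as symbols. Col18a1 falls and Col27a1 rises with little spread, Col11a1 and Col13a1 have a replicate 3 at 72 h that stands away from the other two, and Col9a2 is listed at 0 in both XEN libraries.

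The multiplexin Col18a1, a component of basement membranes, had the largest fall. Col18a1 (ENSMUSG00000001435.15, mm10 chr10:77052178-77166548, minus strand) stood at 148, 143 and 129 TPM at 0 h, at 111, 113 and 101 TPM at 16 h, at 73.9, 79.1 and 98.7 TPM at 24 h and at 21.9, 20.8 and 24.9 TPM at 48 h. It stood at 8.68, 8.62 and 8.39 TPM at 72 h, at 4.97, 5.64 and 5.25 TPM at 96 h, at 4.18, 3.73 and 4.15 TPM at 168 h and at 2.78 and 2.67 TPM in XEN cells. Each time group lay wholly below the one before it. The log2 difference from 0 h was -2.59 ± 0.10 (SE) at 48 h (limma adjusted p = 8.27e-14), -3.88 ± 0.10 at 72 h and -4.81 ± 0.10 at 168 h (adjusted p = 2.88e-18). Both XEN libraries were below the 3 at 168 h (-0.43 ± 0.11, adjusted p = 0.00251), a difference under the minimum of 1 for a call. Col15a1, the other multiplexin, did not reach a mean of 1 TPM in any group.

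Of the 4 transmembrane collagens, 3 were tested. Col13a1, which lies at cell adhesions and at the neuromuscular junction, rose and then fell. Col13a1 (ENSMUSG00000058806.14, mm10 chr10:61838236-61979108, minus strand) stood at 2.44, 2.75 and 2.69 TPM at 0 h, at 4.37, 4.12 and 3.80 TPM at 16 h, at 6.81, 5.71 and 4.71 TPM at 24 h and at 12.4, 13.6 and 10.6 TPM at 48 h. It stood at 4.87, 5.33 and 14.3 TPM at 72 h, at 12.3, 14.3 and 17.0 TPM at 96 h, at 1.46, 1.03 and 4.10 TPM at 168 h and at 0.0404 and 0.101 TPM in XEN cells. At 72 h replicates 1 and 2 were below all libraries of 48 and 96 h while replicate 3 was at their level, and at 168 h replicates 1 and 2 were below and replicate 3 above the libraries of 0 h. Against 0 h the log2 difference was 1.86 ± 0.31 (SE, limma adjusted p = 4.00e-05) at 48 h and 2.09 ± 0.31 (adjusted p = 5.65e-06) at 96 h, and 168 h was below 96 h by -2.39 ± 0.31 (adjusted p = 5.41e-06). XEN cells were below 0 h (-1.76 ± 0.34, adjusted p = 0.000134) and below 168 h (-1.46 ± 0.34, adjusted p = 0.00159). The call at 72 h (1.19 ± 0.31, adjusted p = 0.00202) rested on replicate 3 of that time, without which the difference was 0.75. As given for Col11a1, that library stood apart over all tested genes.

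The other transmembrane members were low. The mean of Col23a1 was 0.0541 TPM before Dox, 2.19 TPM after 168 h and 0.131 TPM in XEN cells, and it was called higher at 168 h than at 0 h (1.59 ± 0.16, limma adjusted p = 1.89e-08) and lower in XEN cells than at 168 h (-1.49 ± 0.17, adjusted p = 1.11e-06). Col23a1 passed the filter of 1 TPM through 168 h alone, the group where it was high, so these calls are not independent of that choice. Col17a1, the hemidesmosomal collagen of epithelia, had a mean of 1.40 TPM at 0 h and was called lower in XEN cells (-1.20 ± 0.28, adjusted p = 0.000737), where its mean was 0.0202 TPM. The call was lost without replicate 1 of 0 h (-0.98).

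Of the 9 FACIT collagens, which attach to the surface of fibrils, 5 were tested. Col9a2, a chain of type IX collagen of cartilage, fell. Col9a2 (ENSMUSG00000028626.5, mm10 chr4:121039385-121055322, plus strand) stood at 7.19, 5.33 and 3.82 TPM at 0 h, at 4.57, 4.30 and 3.83 TPM at 16 h, at 2.22, 1.79 and 3.12 TPM at 24 h and at 3.22, 4.32 and 3.61 TPM at 48 h. It stood at 4.52, 4.11 and 1.40 TPM at 72 h, at 1.55, 2.17 and 2.61 TPM at 96 h and at 1.37, 1.73 and 1.59 TPM at 168 h, and was listed at 0 in both XEN libraries. All libraries of 96 and 168 h lay below those of 0 h. On the log2 scale the difference from 0 h was -1.03 ± 0.25 (SE, limma adjusted p = 0.00118) at 96 h, a call lost without replicate 1 of 0 h (-0.84) or of 96 h (-0.90) and with replicates 1 and 2 averaged (-0.88), and -1.30 ± 0.25 (adjusted p = 0.000108) at 168 h. The sister chain gene Col9a3 was between 0.568 and 2.33 TPM in every library and was called in no comparison, and Col9a1 did not exceed 0.0406 TPM in any.

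Feeder-type collagens, the 9 chains of types I, III, V, VI and XII that embryonic fibroblasts make in quantity, are given next by replicate, because libraries of the same group differed in some fibroblast markers. Of these 9, 7 were called higher at 168 h (22.6% of all genes) and 5 in XEN cells (18.9%), against 0 h, and 0 lower in either (16.5% and 18.7%). In bulk libraries, fewer cells of a type and less RNA per cell cannot be told apart. Thy1, a surface glycoprotein of fibroblasts, stood at 4.63 and 4.75 TPM in replicates 1 and 2 of 0 h against 23.8 TPM in replicate 3, and at 1.88 and 1.20 TPM against 33.0 TPM at 168 h. Replicate 3 was the highest for Thy1, Lum and Dcn in all 7 time groups, an order that 0.379% of the 15057 tested genes had. Of the 13 fibroblast markers tested, these were the 3 with that order. Fbn1, Postn, Prrx1 and Twist2 were highest in replicate 3 in 6 groups and Acta2, Loxl1 and Tagln in 5, but Lox and Mmp2 in 3 and Pdgfrb in 2, and the median difference of replicate 3 from the mean of the others was 2.50 for Thy1 and -0.13 for Pdgfrb on the log2 scale. Replicates 1 and 2 of a time group were closer to each other (median absolute log2 difference of 0.0941 to 0.130) than most other pairs (0.123 to 0.308). Calls are therefore also given where averaging replicates 1 and 2 of every group, which leaves XEN cells with 1 library, ended them. Of the members, Col6a2 and Col5a3 shared that order in all 7 groups, and Col1a2, Col3a1, Col6a1, Col6a3 and Col8a1 in 6 of 7. Col10a1 had the opposite order, with replicate 3 the lowest in all 7, an order found in 0.445% of tested genes.

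The whole list of 14 fibroblast markers outside the collagens, 13 of them tested, also moved with some of the calls. Its summed level ranged from 86.8 to 179 TPM at 0 h and from 163 to 262 TPM at 16 h. At 24 h it ranged from 199 to 252 TPM, above all libraries of 0 h, when Col1a1, Col5a2 and Col12a1 were called. At that time 1 of the 13 (Lox) was called higher (3.24% of all genes) and 0 lower (2.44%). The range was 99.7 to 146 TPM at 48 h, 55.5 to 266 TPM at 72 h and 99.9 to 161 TPM at 96 h. It was 112 to 217 TPM at 168 h and 357 to 372 TPM in XEN cells. At 168 h against 0 h, 5 of the 13 were called higher (22.6% of all genes), namely Dcn, Lox, Lum, Mmp2 and Postn, and 0 lower (16.5%). Lum, a small leucine-rich proteoglycan, stood at 1.91, 1.83 and 8.98 TPM at 168 h, above the 0, 0.0812 and 1.05 TPM of 0 h in all replicates. In XEN cells 4 were higher than at 0 h (18.9% of all genes), namely Acta2, Fbn1, Lox and Tagln, and 0 lower (18.7%). Lum stood there at 0.172 and 0.132 TPM and Dcn at 0.465 and 0.233 TPM. The part of feeder RNA in the changes of the feeder-type collagens was not tested.

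**Figure D3:**
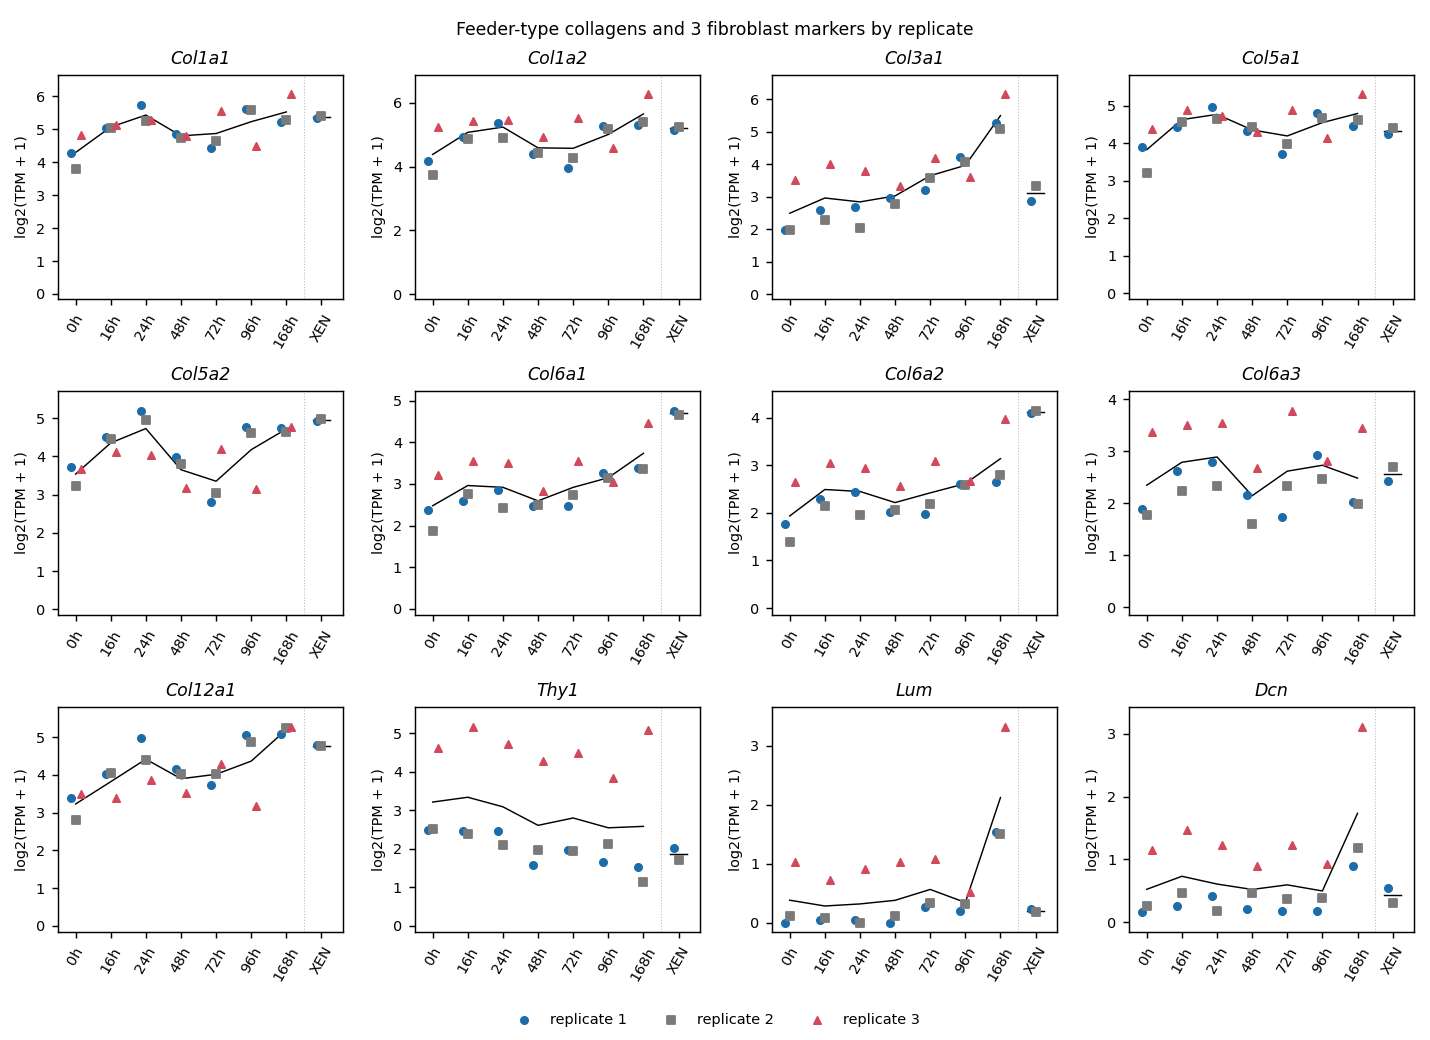
Level as log2(TPM + 1) of the 9 feeder-type collagens and of the fibroblast markers Thy1, Lum and Dcn (panels) in every library of the induction series (horizontal axis), with replicates as symbols and group means as lines. Replicate 3 (triangles) is the highest for Thy1, Lum and Dcn in all 7 time groups, and falls below replicates 1 and 2 for most of the collagens at 96 h.

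Type I collagen, the main fibre of connective tissue, is made of the products of Col1a1 and Col1a2. Col1a1 (ENSMUSG00000001506.10, mm10 chr11:94936224-94953042, plus strand) stood at 18.3, 12.7 and 27.6 TPM at 0 h, at 31.7, 31.5 and 34.3 TPM at 16 h, at 52.3, 37.2 and 38.2 TPM at 24 h and at 27.7, 25.9 and 27 TPM at 48 h. It stood at 20.4, 23.8 and 46.1 TPM at 72 h, at 47.9, 46.7 and 21.6 TPM at 96 h, at 36.5, 38.1 and 65.4 TPM at 168 h and at 39.8 and 40.9 TPM in XEN cells. The libraries of 16 h, 24 h, 168 h and XEN lay above those of 0 h, and those of 48, 72 and 96 h overlapped them. The log2 difference from 0 h was 1.13 ± 0.31 (SE, limma adjusted p = 0.0103) at 24 h, 1.23 ± 0.31 (adjusted p = 0.00161) at 168 h and 1.07 ± 0.35 (adjusted p = 0.0104) in XEN cells. All 3 calls were lost without replicate 2 of 0 h, which left 0.88, 0.97 and 0.82. The call at 24 h was also lost without replicate 1 of 24 h (0.98), that at 168 h without replicate 3 of 168 h (0.96) and that in XEN cells without replicate 2 of XEN (1.05, adjusted p = 0.0516). Averaging replicates 1 and 2 ended the calls at 24 h (0.96, adjusted p = 0.185) and in XEN cells (0.93, adjusted p = 0.147).

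Col1a2 stood at 17.0, 12.3 and 36.9 TPM at 0 h, at 29.3, 28.2 and 42.5 TPM at 16 h, at 40.1, 28.7 and 43.6 TPM at 24 h and at 20.3, 20.5 and 29.6 TPM at 48 h. It stood at 14.4, 18.2 and 45.0 TPM at 72 h, at 37.8, 35.1 and 23 TPM at 96 h, at 38.3, 41.3 and 75.9 TPM at 168 h and at 34.8 and 37.1 TPM in XEN cells. It was called at 168 h (1.27 ± 0.38, limma adjusted p = 0.00596), where its libraries lay above all those of 0 h, and not in XEN cells, which overlapped 0 h (0.82 ± 0.43, adjusted p = 0.0951). Without replicate 2 of 0 h the difference at 168 h was 0.95, and without replicate 3 of 168 h it was 0.97, both under the minimum for a call, and with replicates 1 and 2 averaged it was 1.20 (adjusted p = 0.0622).

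Col5a1 encodes a chain of type V collagen, which starts the growth of type I fibres. It stood at 14, 8.19 and 19.8 TPM at 0 h, at 20.8, 22.6 and 28.5 TPM at 16 h, at 30.0, 23.9 and 25.3 TPM at 24 h and at 19.1, 20.5 and 18.8 TPM at 48 h. It stood at 12, 14.9 and 28.7 TPM at 72 h, at 27.2, 24.7 and 16.8 TPM at 96 h, at 20.9, 23.6 and 38.4 TPM at 168 h and at 18 and 20.4 TPM in XEN cells. It was called in no comparison, with a difference of 0.96 ± 0.29 (SE, limma adjusted p = 0.00600) at 168 h although the libraries did not overlap.

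Col5a2 stood at 12.3, 8.27 and 11.7 TPM at 0 h, at 21.7, 20.7 and 16.2 TPM at 16 h, at 35.5, 29.7 and 15.5 TPM at 24 h and at 14.8, 12.9 and 7.99 TPM at 48 h. It stood at 6.03, 7.25 and 17.3 TPM at 72 h, at 26.4, 23.4 and 7.78 TPM at 96 h, at 25.6, 24.1 and 26.1 TPM at 168 h and at 29.6 and 30.4 TPM in XEN cells. Replicate 3 was below replicates 1 and 2 at 16, 24, 48 and 96 h and above them at 72 and 168 h. It was called at 24 h (1.19 ± 0.39, limma adjusted p = 0.0268), at 168 h (1.18 ± 0.39, adjusted p = 0.0102) and in XEN cells (1.42 ± 0.43, adjusted p = 0.00666). The call at 24 h was lost without replicate 2 of 0 h (1.03, adjusted p = 0.107) and without replicate 1 (0.96, adjusted p = 0.127) or 2 (1.08, adjusted p = 0.0906) of 24 h. With replicate 3 of every time group left out, the differences were 1.59 at 24 h, 1.22 at 168 h and 1.48 in XEN cells, and all passed the test. With replicates 1 and 2 averaged, none of them did, at 0.98 (adjusted p = 0.296), 1.15 (adjusted p = 0.0787) and 1.38 (adjusted p = 0.0935). The call at 24 h was also lost with no filter on low values (adjusted p = 0.0573).

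Col12a1, a FACIT collagen of fibroblasts and tendon, stood at 9.49, 5.95 and 10.4 TPM at 0 h, at 15.1, 15.6 and 9.54 TPM at 16 h, at 30.5, 20.2 and 13.6 TPM at 24 h and at 16.7, 15.2 and 10.6 TPM at 48 h. It stood at 12.3, 15.4 and 18.4 TPM at 72 h, at 32.2, 28.4 and 8.0 TPM at 96 h, at 32.9, 37.2 and 37.6 TPM at 168 h and at 26.7 and 26.2 TPM in XEN cells. Replicate 3 at 96 h lay among the 0 h libraries while the other replicates of that time lay above them. Against 0 h the log2 difference was 1.97 ± 0.37 (SE, limma adjusted p = 8.68e-05) at 168 h and 1.55 ± 0.41 (adjusted p = 0.00260) in XEN cells, neither of which was lost when 1 library was left out, but that in XEN cells was lost with replicates 1 and 2 averaged (1.46, adjusted p = 0.0599). The calls at 24 h (1.19 ± 0.37, adjusted p = 0.0214) and at 96 h (1.14 ± 0.37, adjusted p = 0.0110) were lost without replicate 2 of 0 h (0.97 and 0.92) and without replicate 1 (0.91 and 0.79) or 2 (1.19, adjusted p = 0.0534, and 0.88) of the time itself. They were also lost with replicates 1 and 2 averaged (0.98, adjusted p = 0.257, and 0.75, adjusted p = 0.221), and that at 96 h with only the compared groups in the fit (1.14, adjusted p = 0.0852).

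Type VI collagen, a filament of fibroblasts and muscle, is assembled from different chains, and 2 of the 3 tested genes were called higher in XEN cells. Col6a1 stood at 4.14, 2.64 and 8.22 TPM at 0 h, at 5.01, 5.76 and 10.6 TPM at 16 h, at 6.18, 4.33 and 10.3 TPM at 24 h and at 4.50, 4.66 and 6.06 TPM at 48 h. It stood at 4.53, 5.68 and 10.7 TPM at 72 h, at 8.54, 7.82 and 7.27 TPM at 96 h, at 9.49, 9.18 and 21.0 TPM at 168 h and at 26.0 and 24.3 TPM in XEN cells. The 2 XEN libraries were above every library of the Dox series. The difference from 0 h was 1.26 ± 0.36 (SE, limma adjusted p = 0.00428) at 168 h and 2.23 ± 0.41 (adjusted p = 6.90e-05) in XEN cells. The call at 168 h was lost without replicate 2 of 0 h (0.95) or replicate 3 of 168 h (0.89).

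Col6a2 stood at 2.42, 1.62 and 5.24 TPM at 0 h, at 3.86, 3.39 and 7.31 TPM at 16 h, at 4.45, 2.89 and 6.69 TPM at 24 h and at 3.03, 3.20 and 4.94 TPM at 48 h. It stood at 2.96, 3.55 and 7.51 TPM at 72 h, at 5.05, 4.96 and 5.36 TPM at 96 h, at 5.29, 5.91 and 14.7 TPM at 168 h and at 16.2 and 16.7 TPM in XEN cells. Its XEN libraries also lay above every library of the Dox series. The difference from 0 h was 1.20 ± 0.37 (SE, limma adjusted p = 0.00696) at 168 h and 2.19 ± 0.42 (adjusted p = 0.000112) in XEN cells. The call at 168 h was lost without replicate 2 of 0 h (0.93) or replicate 3 of 168 h (0.79, adjusted p = 0.0627), and with replicates 1 and 2 averaged (1.23, adjusted p = 0.0530).

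Col6a3 was called in no comparison. It stood at 2.73, 2.43 and 9.31 TPM at 0 h, at 5.16, 3.74 and 10.3 TPM at 16 h, at 5.93, 4.05 and 10.6 TPM at 24 h and at 3.45, 2.05 and 5.37 TPM at 48 h. It stood at 2.34, 4.02 and 12.7 TPM at 72 h, at 6.62, 4.50 and 5.98 TPM at 96 h, at 3.07, 2.95 and 9.84 TPM at 168 h and at 4.35 and 5.50 TPM in XEN cells. Replicate 3 was the highest in 6 of the 7 time groups and every group overlapped 0 h, and the difference of 168 h from 0 h was 0.14 ± 0.52 (limma adjusted p = 0.830).

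Ratios within a library set feeder-type collagens against each other and do not depend on the scaling of that library. These ratios were chosen after the values had been seen and are given as a description. Before Dox, Col3a1 over Col1a2 was 0.171, 0.239 and 0.284. It was 0.468, 0.448 and 0.488 after 96 h of Dox and 0.983, 0.792 and 0.923 after 168 h, against 0.182 and 0.243 in XEN cells. The libraries at 168 h did not overlap any other of these groups, and replicate 3 did not stand apart. At 48 h of the same series the ratio ranged from 0.287 to 0.338, and at 72 h from 0.383 to 0.594. In the siRNA libraries, also at 48 h of Dox, it ranged from 0.639 to 1.19 in siCTL and from 0.348 to 1.14 in siOct4. Both siRNA ranges took in the values of 168 h, so that level was not particular to 168 h. Col6a1 over Col1a2 was 0.244, 0.214 and 0.223 at 0 h, 0.248, 0.222 and 0.277 at 168 h and 0.747 and 0.654 in XEN cells. Thus Col3a1 at 168 h and Col6a1 in XEN cells changed unequally with Col1a2. In contrast, Col5a1 over Col1a2 ranged from 0.537 to 0.823 at 0 h, from 0.506 to 0.572 at 168 h and from 0.516 to 0.549 in XEN cells.

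XEN cells and the cells after 168 h of Dox were then compared. No member was called higher in XEN cells (0 of 27, 4.73% of all genes) by limma, and 5 were lower (9.17%), namely Col3a1, Col9a2, Col11a1, Col13a1 and Col23a1, with 12 members at an unadjusted p under 0.05. Col6a1 (0.97 ± 0.41, adjusted p = 0.0539), Col6a2 (0.99 ± 0.42, adjusted p = 0.0572) and Col11a2 (0.97 ± 0.23, adjusted p = 0.00154) fell just short on the higher side, and without replicate 3 of 168 h 3 members were called higher. The XEN libraries come from another line and strain and were grown without LIF, which cannot be told apart from the state of the cells. Between 96 and 168 h 1 member was higher (Col3a1, 5.23% of all genes) and 1 lower (Col13a1, 2.44%). The count of 2 was 4 without replicate 1 of 96 h or of 168 h, 5 without replicate 2 of 96 h, and 1 without replicate 3 of 96 h or of 168 h.

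The remaining members were low or not called. Of type IV chains outside the core, Col4a5 alone of 4 was tested, with a mean of 1.41 TPM before Dox, 3.81 TPM after 168 h and 3.49 TPM in XEN cells. It was called at 168 h (1.03 ± 0.22, limma adjusted p = 0.000309) and not without replicate 2 of 0 h (0.81) or of 168 h (0.94), nor after rescaling of the libraries (0.89) or averaging of replicates 1 and 2 (0.94). Its neighbour Col4a6, which is transcribed away from it on the other strand of chromosome X, did not exceed 0.131 TPM in any library. Col10a1, the network collagen of hypertrophic cartilage, stood at 10.3, 12 and 1.72 TPM at 168 h and at 11.6 and 11.7 TPM in XEN cells against 5.22, 2.87 and 1.44 TPM at 0 h, and was not called in any comparison without a replicate block (XEN against 0 h 1.70, limma adjusted p = 0.0528). Col7a1 (anchoring fibrils) and Col8a1 (short-chain network) reached 5 TPM and were likewise not called without a block. Altogether 15 of 42 members stayed under a mean of 1 TPM in every group, with a highest single value of 1.84 TPM, for Col15a1.

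Genes of the machinery that folds and processes collagen chains were set beside the members' summed level, and a relation over time was not tested. Of 28 genes for collagen biosynthesis and processing, 26 were tested. The members' sum had its lowest mean (187 TPM) after 48 h of Dox, through the fall of Col18a1. By then 14 of the 26 were already called higher (9.14% of all genes) and 4 lower (7.26%). By 168 h 16 were higher (22.6%) and 3 lower (16.5%). The reference genes Col4a1 and Col4a2 were called higher at both times, and their sum had a mean of 1468 TPM after 48 h. Serpinh1, the collagen chaperone HSP47, had means of 42.8 TPM at 0 h and 4869 TPM at 168 h (6.81 ± 0.12, limma adjusted p = 5.96e-19), and the proline hydroxylase gene P4ha2 had means of 7.67 and 964 TPM (6.81 ± 0.15, adjusted p = 6.68e-18). Pcolce, which enhances the cutting of fibrillar procollagens, was lower (means of 128.7 and 18.1 TPM, -2.77 ± 0.23, adjusted p = 2.36e-09). Of 7 collagen receptors 6 were tested, with Itgb1 and Itga11 higher at 168 h (22.6% of all genes) and 0 lower (16.5%). As a check of the induction, the mean of Gata6, which counts endogenous and transgene transcripts together, was 0.264 TPM before Dox. After 16 h of Dox it was 134 TPM, and after 168 h 344 TPM. As checks of the cell state, all 13 PrE markers, with the induced Gata6 among them, were higher at 168 h (22.6% of all genes). All 8 pluripotency markers were lower (16.5%).

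In the siRNA table the target Pou5f1 stood at 804, 782, 945, 846, 1194 and 1171 TPM in siCTL replicates 1 to 6 and at 305, 308, 282, 320, 386 and 387 TPM in siOct4 replicates 1 to 6. The groups did not overlap, and the difference was -1.52 ± 0.14 (SE, limma adjusted p = 5.21e-05). The table held 14 members, all of them tested. Limma called 0 of 14 higher (0.942% of all genes tested there) and 0 of 14 lower (1.72%) in siOct4 against siCTL at an absolute log2 difference above 0.5, with 2 members at an unadjusted p under 0.05. With the replicate number of the titles as a block, 0 were higher (2.43% of all genes) and 3 lower (6.15%), namely Col9a2, Col11a1 and Col13a1. Of the lists above, 0 of 22 tested genes for collagen biosynthesis, 0 of 2 receptors, 0 of 4 fibroblast markers and neither Col4a1 nor Col4a2 were called. In the blocked fit 2 of the 22 were lower (P4ha2 and Plod1) and the other counts of these lists stayed at 0. Of the PrE markers 2 of 13 were lower (Amn and Cubn), and of the 8 pluripotency markers Pou5f1 itself was the one called. With the block 6 PrE markers (Dab2, Gata4, Pdgfra and Sox7 as well) and 2 pluripotency markers (Esrrb as well) were lower.

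Col11a1 stood between 3.81 and 13.6 TPM with a median of 9.90 TPM in siCTL and between 2.06 and 8.96 TPM with a median of 5.14 TPM in siOct4. The difference was -0.80 ± 0.34 (SE), with a limma adjusted p of 0.291, or 0.0426 in the blocked fit. Col13a1 stood between 2.46 and 8.46 TPM with a median of 4.37 TPM in siCTL and between 0.826 and 4.82 TPM with a median of 2.67 TPM in siOct4, a difference of -0.64 ± 0.32 (adjusted p = 0.420, blocked 0.0410). Col9a2 stood between 0.870 and 2.88 TPM in siCTL and between 0.151 and 1.37 TPM in siOct4, a difference of -0.63 ± 0.23 (adjusted p = 0.217, blocked 0.0435). The groups overlapped for all 3, and each siOct4 library was below the siCTL library of its own number. Some libraries of a group were very close over all tested genes. The median absolute log2 difference was 0.119 for siCTL 1 and 2, 0.157 for siCTL 5 and 6 and 0.149 for siOct4 5 and 6. All other pairs within a group stood at 0.250 or more. The 6 numbers may therefore not be independent units, and the blocked p-values may be too small.

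Feeder-type collagens differed more between libraries of one group than between the groups. Col1a1 stood at 48.2, 42.5, 10.7, 88.7, 13.5 and 13.3 TPM in siCTL replicates 1 to 6 and at 24.6, 19.6, 12.1, 10.6, 94.0 and 85.4 TPM in siOct4 replicates 1 to 6. All 7 feeder-type collagens in the table were highest in siCTL replicates 1, 2 and 4 and in siOct4 replicates 5 and 6. The fibroblast markers of that table, Lox, Postn, Mmp2 and Dcn, had the same order in 4 of 4 cases, whereas of the other 7 members only Col4a5 had it. The difference between siOct4 and siCTL was 0.08 ± 0.61 for Col1a1 (limma adjusted p = 0.969), 0.13 ± 0.69 for Col12a1 (adjusted p = 0.958) and -0.61 ± 0.64 for Col3a1 (adjusted p = 0.753). Col18a1 ranged from 1.73 to 20.2 TPM in siCTL and from 2.16 to 45.7 TPM in siOct4, with replicates 5 and 6 highest in both groups. Col27a1 ranged from 2.98 to 24.2 TPM in siCTL and from 3.80 to 21.2 TPM in siOct4, a difference of 0.71 ± 0.46 (adjusted p = 0.562).

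**Figure D4:**
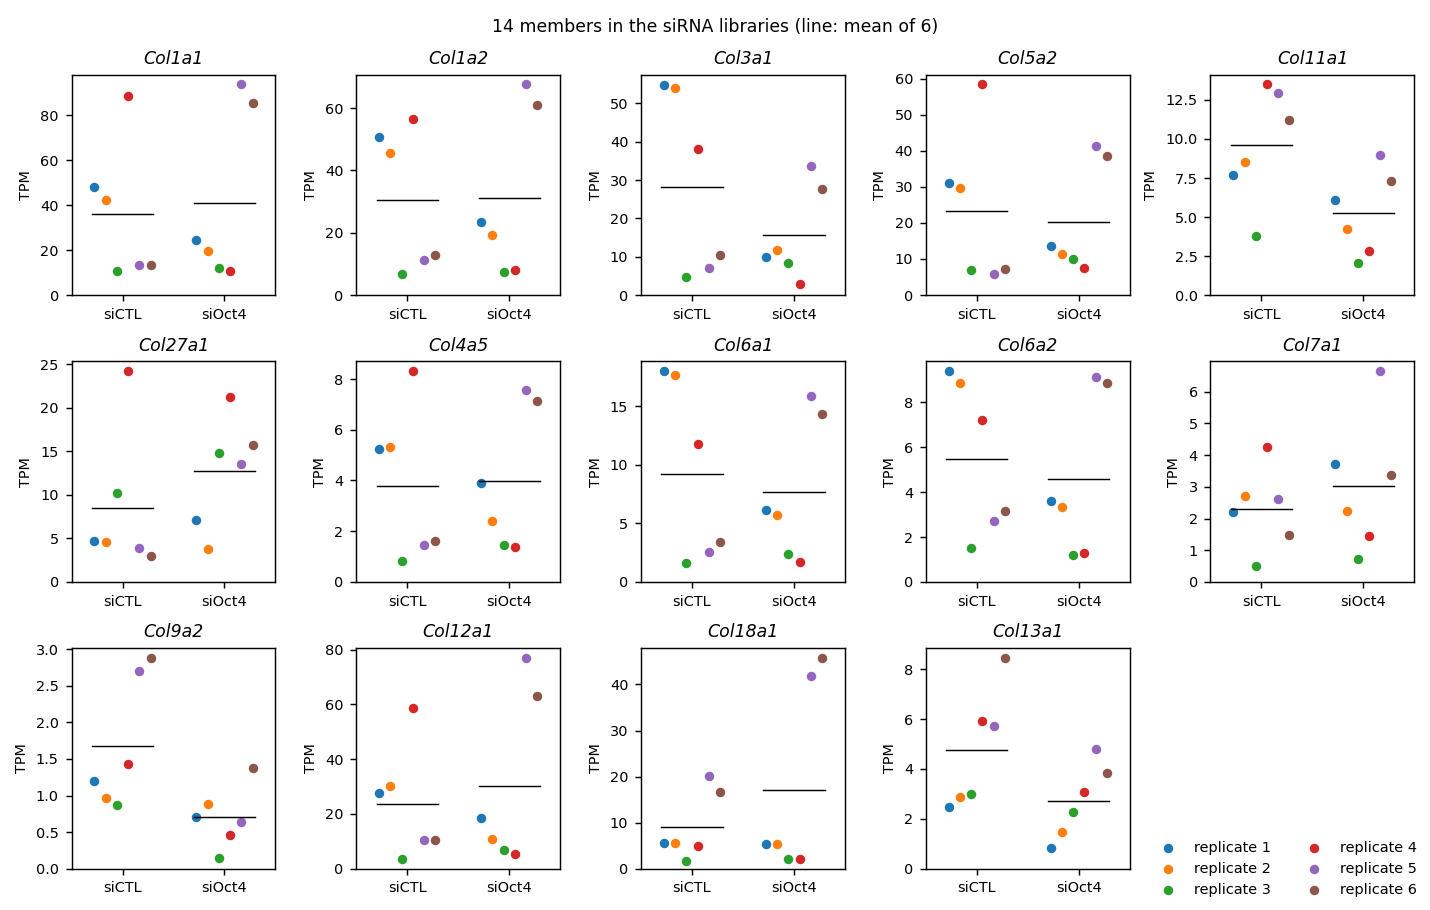
TPM of the 14 members of the siRNA table (panels) in the 6 siCTL and 6 siOct4 libraries, coloured by replicate number, with the group mean as a line. The type I, III, V, VI and XII chains are high in siCTL replicates 1, 2 and 4 and in siOct4 replicates 5 and 6, and the groups overlap for every member.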

How the data were processed

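RNA-seq values were used as deposited by the authors, in TPM, from stranded polyA libraries trimmed with cutadapt, aligned to mm10 with STAR and quantified with RSEM according to the submitters' processing notes, which give no versions. The authors' siRNA table holds only genes that they called responsive to GATA6, with their group means and text classes of response, none of which was used. TPM keeps no depth, so no counting error is given and the spread between replicates is the error. For 60 symbols listed on several rows, only the row of highest mean was used. Genes whose mean reached 1 TPM in any group (15057 and 6264) were tested on log2(TPM + 1), which understates changes of low genes, with limma 3.58.1 in R 4.3.3 (trend and robust, all groups of a table in a fit), after tests on simulated data. Python 3.11.15 and pandas 2.3.3 were used for the rest. Calls needed an adjusted p under 0.05 and an absolute log2 difference above 1, or 0.5 for siRNA.

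Members and lists were chosen with earlier results of these data known. Members called in any comparison with a mean of at least 5 TPM, and the 9 feeder-type collagens, are given in every library, others by range. Titles share replicate numbers. In the siRNA table same-numbered libraries deviated together (r from 0.236 to 0.707, mean 0.328, over 6 pairs, against -0.0640 for other pairs), which was taken as a pairing. The blocked fit treats the 6 numbers as independent, although some libraries of a group were very close to each other. Gene spans came from GENCODE M21 and promoters from RefSeq. Protein sequences were not used here. Alternatives were rescaling, pseudocount, filter, samples in the fit, block and single libraries left out. Others were chosen after the data had been seen, namely leaving out replicate 3 and averaging replicates 1 and 2 of the induction series. Consecutive siRNA libraries (1-2, 3-4 and 5-6) were averaged as well. They were not all near, as siCTL 3 and 4 differed most of all pairs within a siRNA group (median absolute log2 difference 0.810).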

Additional observations from a re-analysis of the deposited data

Results flagged for a closer look

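In the siCTL group, replicate 4 stood apart for Col27a1 at 24.2 TPM, with the next highest of the 6 libraries at 10.2 TPM, a gap of 0.660 of the group's range against a critical value of 0.625. It was the only one of 28 sets of 6 libraries (14 members in 2 groups) to pass that limit, which chance passes in about 1 of 20 sets. Its cause was not tested.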

How the results depend on the processing

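Of 79 counts of called members recomputed under alternatives other than leaving out a library, 67 stayed within 1.5 times the first count. With a pseudocount of 0.1 TPM the count was 8 in place of 3 at 24 h, 9 in place of 5 at 72 h and 6 in place of 2 for 168 h against 96 h. Averaging replicates 1 and 2 gave 1 at 24 h and 4 in place of 7 at 96 h. Leaving out replicate 3 of every time group gave 1 in place of 0 at 16 h, 9 at 24 h, 15 at 96 h and 8 in place of 5 for XEN against 168 h. Median-of-ratios rescaling also gave 8 for XEN against 168 h. Without 1 library the counts ranged from 0 to 2 at 16 h, 0 to 7 at 24 h, 4 to 4 at 48 h, 4 to 6 at 72 h, 5 to 11 at 96 h, 9 to 16 at 168 h, 9 to 14 for XEN against 0 h, 5 to 8 for XEN against 168 h, 1 to 5 for 168 h against 96 h and 0 to 0 for siOct4.

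With a replicate block the count was 8 in place of 5 for XEN against 168 h and 3 in place of 0 for siOct4, and the other counts stayed within 1.5 times. In XEN cells against 0 h the block added calls of Col10a1 (1.20, limma adjusted p = 0.00128), Col8a1 (adjusted p = 0.00722) and Col1a2 (1.03, adjusted p = 0.0120), and against 168 h those of Col6a1, Col6a2 and Col11a2. Over all tested genes of the induction series, same-numbered libraries did not deviate together throughout (mean r of 0.0333, from -0.186 to 0.219). Single genes did share an order by number, as given above for replicate 3 in Thy1, Lum, Dcn, Col6a2 and Col10a1.

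Rescaling moved the median of all genes from 0.09 to -0.05 at 168 h against 0 h. It moved from -0.14 to -0.02 for XEN against 168 h and from -0.12 to 0.01 for siOct4. The share of higher among called genes went from 57.7 to 49.5% at 168 h against 0 h. This share went from 34 to 46.5% for XEN against 168 h and from 68.1 to 53.7% for 168 h against 96 h. For siOct4 it went from 35.3 to 48.5%.

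Signs turned only for siOct4 differences that were not called. Rescaling gave 0.12 for Col1a2, and averaging consecutive siRNA libraries gave -0.13 for Col1a1, -0.026 for Col4a5, -0.19 for Col5a2 and -0.16 for Col12a1. Without 1 library the difference ranged from -0.25 to 0.42 for Col1a1, -0.34 to 0.27 for Col1a2, -0.12 to 0.35 for Col4a5, -0.25 to 0.37 for Col5a2, -0.43 to 0.15 for Col6a1, -0.26 to 0.48 for Col12a1 and -0.18 to 0.60 for Col18a1. The causes were not tested. Depth is unknown, and the 2 XEN libraries limit the precision of every value for that line.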
